A study of Mus musculus with 9 samples.

Results

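The genes described here were the granins and the genes that process prohormones: Scg5, Scg2, Scg3, Chga, Chgb, Vgf, Pcsk1, Pcsk2, Pcsk1n and Cpe. They were taken by symbol from the gene column of the deposited comparison tables and joined by Ensembl identifier to the read counts of each library. All 10 were found among 47729 genes, and all 10 passed the filter on low counts that left 17988 genes for testing. The set was chosen by the Scg5 level, which was higher in the Dot1l(fl/fl)-labelled libraries than in Dot1l(+/+), so that contrast is given below as a description.

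Messenger RNA was sequenced from midbrain dopaminergic (DA) neurons of C57/Bl6 mouse embryos at E15.75. The neurons were sorted by fluorescence-activated cell sorting (FACS) on yellow fluorescent protein (YFP). The 3 genotypes compared were Dot1l(+/+) with 3 libraries, Dot1l(fl/+) with 3 and Dot1l(fl/fl) with 2. A Dot1l(fl/fl) library with replicate number 3 was not analysed here. Every group, controls included, carried one Cre allele in the Pitx3 locus (Pitx3-Cre/+) and a Rosa-lox-stop-lox-YFP reporter, so the genotypes differed in the number of floxed Dot1l alleles, which was 0, 1 or 2. Dot1l methylates histone H3 at lysine 79, Cre driven by Pitx3 acts once DA precursors have left the cell cycle, and the loxP sites flank a single Dot1l exon. Each library came from pooled embryos, with a single set of the genotypes taken from each litter by the study's methods, so the spread between libraries is a spread between pools.

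Totals ran from 26296897 to 43674673 counts in Dot1l(+/+), from 28173586 to 29917556 in Dot1l(fl/+), and were 18298340 and 13616922 in the Dot1l(fl/fl)-labelled libraries. Depth therefore cannot be told apart from the Dot1l(fl/fl) label, whereas the Dot1l(fl/+) totals lay within the Dot1l(+/+) range. The 16 DA marker genes were all detected and summed to 5901.3 to 8320.7 CPM (counts scaled to a common library size with TMM factors), whereas 5 blood genes summed to at most 33.4 CPM. Markers of other cells were also present. Radial glia and progenitor markers summed to 220.1 to 260.9 CPM and GABAergic markers to 195.7 to 264.0 CPM. Glutamatergic markers summed to 167.0 to 212.2 CPM and microglial markers to 67.2 to 96.4 CPM. The share of RNA from such cells was not estimated. The gene-level Dot1l count mostly covers exons outside the deleted one and so checks the labels little. It was 105.2, 84.6 and 94.6 CPM in Dot1l(+/+), 75.5, 65.6 and 76.2 CPM in Dot1l(fl/+), and 64.9 and 99.1 CPM in Dot1l(fl/fl) 1 and 2. The second of these did not stand below the controls, which is why the genotype is given as labelled throughout.

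Granins are acidic soluble proteins that aggregate in the trans-Golgi network and are packed into dense-core vesicles together with neuropeptides and hormones. Inside the vesicle the convertases encoded by Pcsk1 and Pcsk2 cut prohormones after pairs of basic residues, and carboxypeptidase E, encoded by Cpe, trims the basic residues left behind. Each convertase has a small secretory partner: the product of Scg5 accompanies and inhibits the Pcsk2 enzyme until it matures, and the product of Pcsk1n (proSAAS) inhibits the Pcsk1 enzyme. DA neurons store dopamine mainly in small synaptic vesicles but also carry dense-core vesicles.

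Several granin genes are textbook targets of factors that bind the cyclic AMP response element (CRE), whose full form is the palindrome TGACGTCA and whose core is TGACG. RefSeq promoter windows, from 250 bases before to 50 bases after the transcription start on GRCm38.p6, were found for 8 of the 10 genes, Cpe and Vgf being named only. Those of Scg5 (chr2:113829042-113829341, minus strand), Scg2 (chr1:79439977-79440276, minus strand), Chgb (chr2:132781392-132781691, plus strand) and Pcsk1 (chr13:75089607-75089906, plus strand) are shown because Scg5 carried the difference that chose the set and the other 3 held the full element. Each is written 5′ to 3′ in the direction of transcription, and capitals mark TGACG on either strand.
Scg5: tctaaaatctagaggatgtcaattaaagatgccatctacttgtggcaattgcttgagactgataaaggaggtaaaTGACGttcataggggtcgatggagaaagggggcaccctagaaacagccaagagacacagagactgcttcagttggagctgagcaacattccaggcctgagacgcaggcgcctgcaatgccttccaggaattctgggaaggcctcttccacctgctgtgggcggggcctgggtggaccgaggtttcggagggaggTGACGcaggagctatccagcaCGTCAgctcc
Scg2: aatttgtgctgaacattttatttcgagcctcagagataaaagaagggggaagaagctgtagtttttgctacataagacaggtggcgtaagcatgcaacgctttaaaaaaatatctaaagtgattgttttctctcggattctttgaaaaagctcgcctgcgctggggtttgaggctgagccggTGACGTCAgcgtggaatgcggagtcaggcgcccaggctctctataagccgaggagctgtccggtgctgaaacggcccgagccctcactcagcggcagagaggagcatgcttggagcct
Chgb: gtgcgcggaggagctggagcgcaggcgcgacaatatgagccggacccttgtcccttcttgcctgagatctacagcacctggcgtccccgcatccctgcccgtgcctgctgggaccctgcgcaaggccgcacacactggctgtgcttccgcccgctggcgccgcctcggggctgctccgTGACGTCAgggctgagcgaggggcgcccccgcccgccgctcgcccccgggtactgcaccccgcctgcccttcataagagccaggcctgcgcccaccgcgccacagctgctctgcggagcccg
Pcsk1: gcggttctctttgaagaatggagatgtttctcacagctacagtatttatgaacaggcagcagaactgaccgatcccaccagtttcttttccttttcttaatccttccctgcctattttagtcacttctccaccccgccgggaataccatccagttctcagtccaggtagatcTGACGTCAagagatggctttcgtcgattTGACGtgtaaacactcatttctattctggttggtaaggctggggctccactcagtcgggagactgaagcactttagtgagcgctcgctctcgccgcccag

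The full element began 68 bases before the start in Scg2, 72 bases before it in Chgb and 78 bases before it in Pcsk1. It was in 3 of the 8 windows, against 1.79% of all 32851 promoter windows of the same length. The core, which every full element also contains on both strands, was in 7 of the 8 (all but Pcsk1n), against 20.8% of all windows. In Scg5 the core was found 175 bases before the start and 19 and 40 bases after it, with no full element. A TATA box (TATAAA, either strand) was in the Chga window alone, where it began 5 bases after the start, against 13.6% of all windows. A GC box (GGGCGG, either strand) was in 6 of the 8, against 35.7%. These matches describe letters in a window and were not tests of binding.

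The levels of the 10 genes spanned a wide range. Compared per kilobase of exon in Dot1l(+/+), the order ran from Scg2 (531 ± 26.8 CPM per kilobase, SD, n = 3) through Cpe (403 ± 22.3), Pcsk1n (200 ± 44.2), Scg5 (121 ± 18.8), Chgb (117 ± 7.19), Scg3 (112 ± 1.37), Chga (65.9 ± 3.05), Pcsk2 (24.2 ± 0.428) and Vgf (16.6 ± 2.59) to Pcsk1 (0.541 ± 0.197). The libraries of neighbouring genes overlapped between Scg5 and Chgb and between Chgb and Scg3, so these 3 were not separated. Scg2 and Cpe lay above 99.8% of all tested genes, Vgf above 80.2% and Pcsk1 above 23%. The Pcsk2 convertase was thus far more abundant as RNA than the Pcsk1 convertase in these neurons. Together the 10 genes made up 0.391% to 0.479% of all counts in a library, and Scg2 with Cpe took 56.9% to 60.2% of their summed CPM.

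**Figure D1:**
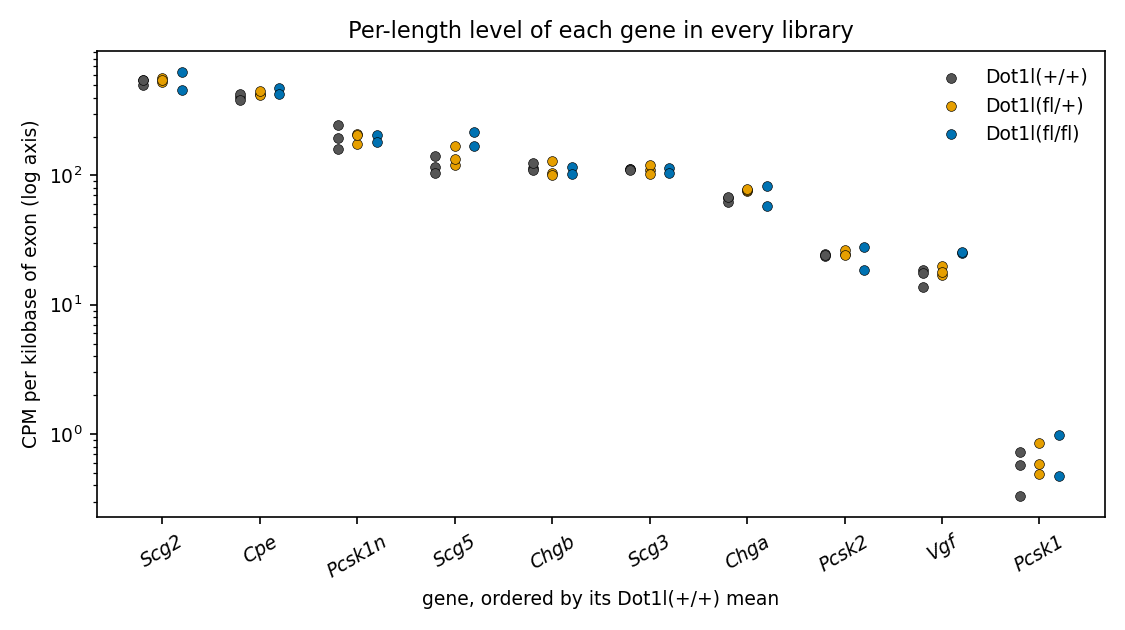
Level per kilobase of exon (CPM per kilobase, log axis) of each gene in every library, 1 point per library and coloured by genotype, with genes ordered by their Dot1l(+/+) mean. Scg2 and Cpe stand highest, Scg5, Chgb and Scg3 overlap in Dot1l(+/+), and Pcsk1 sits apart at the bottom, from 0.33 to 0.985.

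Scg5 (ENSMUSG00000023236, chr2:113776362-113829121, minus strand, 7 exonic blocks; all gene coordinates are GRCm38) stood at 184.0, 221.3 and 163.1 CPM in Dot1l(+/+). In Dot1l(fl/+) it was at 266.0, 189.0 and 208.3 CPM, and in the Dot1l(fl/fl)-labelled libraries at 339.6 and 265.2 CPM. Both of the latter lay above all Dot1l(+/+) libraries, but Dot1l(fl/+) 1 lay level with Dot1l(fl/fl) 2, so the genotype ranges overlapped there. The log2 fold change against Dot1l(+/+) in the Dot1l(fl/fl)-labelled libraries, which is the contrast that chose the set, was 0.67 ± 0.14 (SE), a fold of 1.60. In bulk RNA, a change in the share of cells that carry a transcript and a change in RNA per cell cannot be told apart. This holds here and for every gene below.

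For Dot1l(fl/+) against Dot1l(+/+), the Scg5 log2 fold change was 0.22 ± 0.12 (95% interval -0.04 to 0.48) and did not pass the test across all genes (edgeR quasi-likelihood test, Benjamini-Hochberg adjusted p = 0.94). It was 0.07 without Dot1l(fl/+) 1 and 0.35 without Dot1l(+/+) 2. The Dot1l(fl/fl)-labelled libraries were higher than Dot1l(fl/+) by 0.45 ± 0.14 on the log2 scale (interval 0.17 to 0.74). This difference had an unadjusted edgeR p of 0.00333 and did not pass after adjustment over all genes (adjusted p = 0.998). It reuses the Dot1l(fl/fl)-labelled libraries that chose the set, and the comparison of Dot1l(fl/+) with Dot1l(+/+) reuses the Dot1l(+/+) libraries.

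The convertase that the Scg5 product accompanies showed another pattern. Pcsk2 (ENSMUSG00000027419, chr2:143546156-143816285, plus strand) was at 194.9, 188.1 and 191.1 CPM in Dot1l(+/+), 195.1, 210.6 and 192.6 in Dot1l(fl/+), and 221.4 and 148.1 in the Dot1l(fl/fl)-labelled libraries. The Dot1l(+/+) values were close together, and the 2 Dot1l(fl/fl)-labelled libraries were the highest and the lowest of all 8. As a ratio of per-kilobase levels within each library, a measure chosen after the values were seen and given with no test, Scg5 over Pcsk2 was 4.76, 5.93 and 4.3 in Dot1l(+/+), 6.87, 4.52 and 5.45 in Dot1l(fl/+), and 7.73 and 9.03 in Dot1l(fl/fl). The ratio was highest in both Dot1l(fl/fl)-labelled libraries, but it contains the Scg5 level that chose the set. Of that pair, the library with the lower Scg5 level and the lowest Pcsk2 level had the higher ratio. The other partner ratio, Pcsk1n over Pcsk1, was 341, 342 and 481 in Dot1l(+/+) and 246, 361 and 346 in Dot1l(fl/+). In the Dot1l(fl/fl)-labelled libraries it was 209 and 383, so the genotypes overlapped. Antisense transcripts Pcsk2os1 and Pcsk2os2 overlap Pcsk2 exons but held only 464 and 18 counts against 43307 for Pcsk2.

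Vgf (ENSMUSG00000037428, chr5:137026392-137033351, plus strand), a neurotrophin-inducible precursor of several secreted peptides, was the other gene with a difference of this size. It was at 55.0, 52.7 and 40.7 CPM in Dot1l(+/+), 50.1, 58.7 and 52.8 CPM in Dot1l(fl/+), and 74.6 and 76.4 CPM in the Dot1l(fl/fl)-labelled libraries. The last 2 values nearly coincided and lay above all libraries of the other genotypes. The log2 fold change against Dot1l(+/+) in the Dot1l(fl/fl)-labelled libraries was 0.61 ± 0.15 (SE), again a description. Between Dot1l(fl/+) and Dot1l(+/+) it was 0.13 ± 0.13 (interval -0.14 to 0.40, adjusted p = 0.995, edgeR), and 0.0016 without Dot1l(+/+) 3 and 0.21 without Dot1l(+/+) 1. Against Dot1l(fl/+), the Dot1l(fl/fl)-labelled libraries were higher by 0.49 ± 0.15 (interval 0.19 to 0.79), with an unadjusted edgeR p of 0.00278 and an adjusted p of 0.998.

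A list of 12 genes that respond quickly to neuronal activity and to tissue dissociation was also at a higher summed level in the Dot1l(fl/fl)-labelled libraries. The list, like the others here, was chosen with earlier results of these data known. Its summed level was 1069.4 to 1257.5 CPM in Dot1l(+/+), 1040.7 to 1310.3 CPM in Dot1l(fl/+), and 1475.6 and 1518.9 CPM in the Dot1l(fl/fl)-labelled libraries. In these libraries 10 of the 12 had a positive log2 fold change against Dot1l(+/+) (median 0.40), beside 49.5% of all tested genes. At an unadjusted p under 0.05, 8 of the 12 were higher, beside 9.27% of all genes in either direction and 763 of 17988 that were higher (edgeR). None passed at an adjusted p under 0.05 (edgeR), whereas DESeq2 called 3 (Fos, Dusp1 and Btg2), beside 6.34% of the 3691 genes to which it gave an adjusted p. How many of the 12 were among those 3691 was not counted, so the 3 are not a share of 12. None of the 12 was at 0 in every library. Against Dot1l(fl/+), 11 of the 12 had a positive log2 fold change (median 0.40). At the unadjusted level 8 were again higher, beside 4.02% of all genes in either direction and 334 of 17988 that were higher. The summed level of 5 GABAergic markers was 203.6 to 223.9 CPM in Dot1l(+/+), 195.7 to 230.0 CPM in Dot1l(fl/+), and 264.0 and 234.7 CPM in the Dot1l(fl/fl)-labelled libraries. Within that sum Slc32a1, the vesicular GABA transporter gene, had a log2 fold change of 0.37 against Dot1l(+/+), Gad2 0.10, Gata3 -0.14, Gad1 -0.36 and Tal1 -0.51. The 16 DA markers summed to 7349.9 to 8320.7, 7227.1 to 7775.5, and 7025.9 and 5901.3 CPM in the 3 genotypes. Of these markers 15 had a negative log2 fold change against Dot1l(+/+) in the Dot1l(fl/fl)-labelled libraries (median -0.27). At an unadjusted edgeR p under 0.05, 11 were lower, beside 9.27% of all genes in either direction and 904 of 17988 that were lower, and 0 passed after adjustment. DESeq2 called 5 (Th, Ddc, Nr4a2, En1 and En2), beside 6.34% of 3691 genes, and how many of the 16 were among those 3691 was not counted. None of the 5 or the 16 was at 0 in every library. The part of these lists in the Scg5 and Vgf values was not tested.

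**Figure D2:**
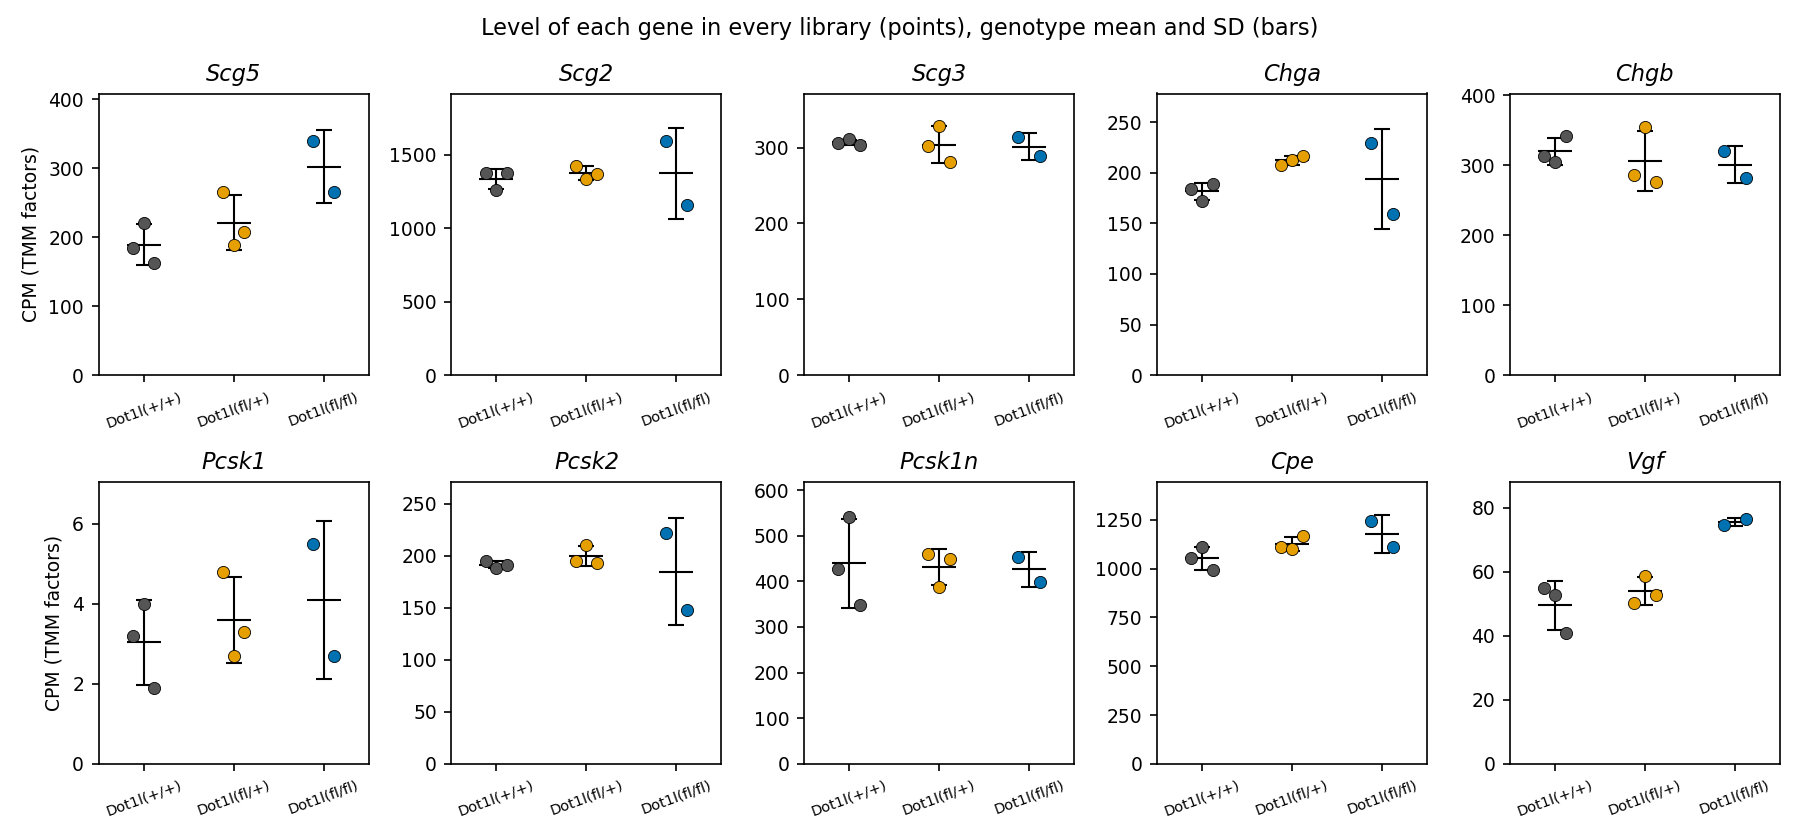
CPM of each gene (vertical axis from 0) in every library, with points for libraries and bars for the genotype mean and SD (n = 3, 3 and 2). Scg5 and Vgf are the panels in which both Dot1l(fl/fl)-labelled libraries lie above all Dot1l(+/+) libraries, and in most other panels these 2 libraries bracket the rest or overlap them.

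Scg2 (ENSMUSG00000050711, chr1:79434669-79440120, minus strand), which encodes secretogranin II, the precursor of secretoneurin, was at 1376.1, 1259.0 and 1375.1 CPM in Dot1l(+/+). It was at 1424.7, 1336.6 and 1365.9 CPM in Dot1l(fl/+), and at 1589.6 and 1155.2 CPM in the Dot1l(fl/fl)-labelled libraries, the highest and the lowest of the 8. The fitted log2 fold change was 0.04 ± 0.09 (interval -0.14 to 0.22) for Dot1l(fl/+) against Dot1l(+/+), and the Dot1l(fl/fl)-labelled libraries differed from Dot1l(fl/+) by -0.00 ± 0.10 (interval -0.20 to 0.19).

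Chga and Chgb encode the classical granins chromogranin A and chromogranin B. Chga (ENSMUSG00000021194, chr12:102554969-102565028, plus strand) was at 183.9, 172.5 and 188.8 CPM in Dot1l(+/+) and at 207.7, 212.6 and 216.1 CPM in Dot1l(fl/+). All Dot1l(fl/+) libraries lay above all Dot1l(+/+) libraries, whereas the Dot1l(fl/fl)-labelled libraries, at 228.9 and 158.9 CPM, lay above and below every other library. The Chga log2 fold change for Dot1l(fl/+) against Dot1l(+/+) was 0.22 ± 0.11 (unadjusted p = 0.0509, adjusted p = 0.94, edgeR). Chgb (ENSMUSG00000027350, chr2:132781278-132795079, plus strand) ranged from 276.3 to 354.5 CPM over the 8 libraries, both limits lying in Dot1l(fl/+). Its log2 fold changes were -0.06 ± 0.10 for Dot1l(fl/+) against Dot1l(+/+) and -0.02 ± 0.11 for the Dot1l(fl/fl)-labelled libraries against Dot1l(fl/+).

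Scg3 (ENSMUSG00000032181, chr9:75643189-75684056, minus strand), which encodes a granin that tethers chromogranin A to the vesicle membrane, was the most even of the set. It ranged from 280.4 to 328.9 CPM, a ratio of 1.17 between the highest and lowest library, with 303.1 to 310.6 CPM in Dot1l(+/+). Its log2 fold change was -0.01 ± 0.09 (interval -0.20 to 0.17) for Dot1l(fl/+) against Dot1l(+/+) and -0.01 ± 0.10 (interval -0.21 to 0.19) for the Dot1l(fl/fl)-labelled libraries against Dot1l(fl/+).

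Among the remaining processing genes, Cpe (ENSMUSG00000037852, chr8:64592542-64693054, minus strand) was at 1054.7, 1109.8 and 993.5 CPM in Dot1l(+/+) and at 1110.6, 1101.5 and 1169.1 CPM in Dot1l(fl/+). The Dot1l(fl/fl)-labelled libraries had 1246.7 and 1109.1 CPM, the first of them the highest of all and the second just below the top Dot1l(+/+) library. The log2 fold change was 0.10 ± 0.07 (interval -0.05 to 0.25) for Dot1l(fl/+) against Dot1l(+/+) and 0.06 ± 0.08 (interval -0.10 to 0.23) for the Dot1l(fl/fl)-labelled libraries against Dot1l(fl/+). Pcsk1n (ENSMUSG00000039278, chrX:7919822-7924410, plus strand) had a wider spread within Dot1l(+/+) than within either other genotype. There it was at 427.8, 541.5 and 348.6 CPM, which included both the highest and the lowest of the 8 values. It was at 459.6, 386.8 and 447.9 CPM in Dot1l(fl/+) and at 452.5 and 399.4 CPM in the Dot1l(fl/fl)-labelled libraries, all within the Dot1l(+/+) range.

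Pcsk1 (ENSMUSG00000021587, chr13:75089826-75134861, plus strand) had the lowest level of the set, with 37 to 142 counts in a library. Its level was 3.2, 4.0 and 1.9 CPM in Dot1l(+/+), 4.8, 2.7 and 3.3 CPM in Dot1l(fl/+), and 5.5 and 2.7 CPM in the Dot1l(fl/fl)-labelled libraries. The genotypes overlapped, and the interval for the Dot1l(fl/fl)-labelled libraries against Dot1l(fl/+) ran from -0.79 to 1.16 on the log2 scale, so changes within that range in either direction were not separated from 0. The Pcsk2 log2 fold change was 0.06 ± 0.11 (interval -0.17 to 0.29) for Dot1l(fl/+) against Dot1l(+/+) and -0.11 ± 0.13 (interval -0.37 to 0.15) for the Dot1l(fl/fl)-labelled libraries against Dot1l(fl/+).

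**Figure D3:**
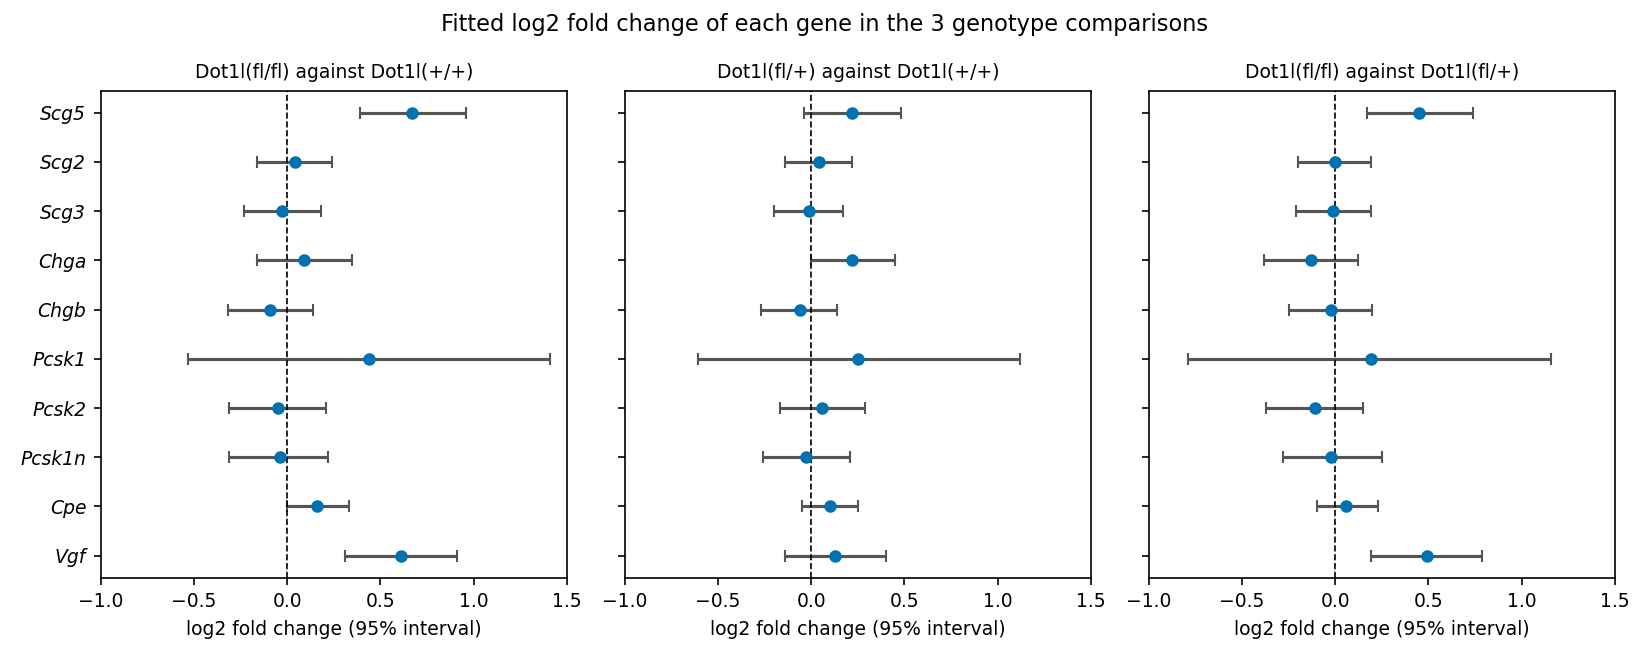
Fitted log2 fold change (horizontal axis) with its 95% interval for each gene in the 3 genotype comparisons, from 1 edgeR fit of 8 libraries. Scg5 and Vgf stand to the right of 0 in both panels that hold Dot1l(fl/fl), the first of which chose the set, and Pcsk1 has the widest intervals.

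Counted over the set, the Dot1l(fl/fl)-labelled libraries against Dot1l(+/+) had 0 of 10 genes at an adjusted p under 0.05 by edgeR (0% of all tested genes) and 2 of 10, Scg5 and Vgf, at an unadjusted p under 0.05 (9.27% of all). DESeq2 called Scg5 alone among the 8 of the 10 to which it gave an adjusted p (6.34% of 3691 genes). Pcsk1 and Vgf were given no adjusted p, and their unadjusted DESeq2 p-values were 0.415 and 9.12e-05. Scg5 and Vgf were also the 2 without overlap between the genotypes (23.7% of all). As this contrast chose the set, nothing is read from those counts. For Dot1l(fl/+) against Dot1l(+/+), edgeR called 0 of 10 after adjustment (0%) and 0 of 10 before it (5.02%), DESeq2 called 0 of 10 (0%), and 1 of 10, Chga, did not overlap (11.5%). For the Dot1l(fl/fl)-labelled libraries against Dot1l(fl/+), edgeR called 0 of 10 after adjustment (0%) and 2 of 10, Scg5 and Vgf, before it (4.02%), DESeq2 called 0 of 10 (0.00422%), and 1 of 10, Vgf, did not overlap (19.8%).

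The median log2 fold change of the 10 genes was 0.07, 0.08 and -0.01 in these 3 comparisons in turn, beside medians within 0.01 of 0 over all tested genes. Positive values were seen in 6, 7 and 4 of the 10, against 49.5%, 49% and 50.2% of all tested genes.

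The pair of Dot1l(fl/fl)-labelled libraries differed from each other in most of the set. Dot1l(fl/fl) 1 had the higher level in 9 of the 10 genes, Vgf being the exception, against 50.6% of all tested genes. The gap was widest for Pcsk1 (2.07 times), Pcsk2 (1.49 times), Chga (1.44 times) and Scg2 (1.38 times), and Scg5 was 1.28 times higher. Without Dot1l(fl/fl) 1, the log2 fold change against Dot1l(+/+) was 0.48 for Scg5 and was negative for Scg2 (-0.21), Chga (-0.20) and Pcsk2 (-0.37), of which Pcsk2 was also below 0 with both libraries (-0.05), and without Dot1l(fl/fl) 2 it was 0.84 for Scg5, 0.25 for Scg2, 0.33 for Chga and 0.21 for Pcsk2. Against Dot1l(fl/+), the Scg5 value was 0.26 without Dot1l(fl/fl) 1 and 0.62 without Dot1l(fl/fl) 2.

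Likeness was measured as the root mean square difference of log2 CPM over the 8 libraries, each gene centred on its own mean. A small value means deviations close in size as well as in direction. Genes that vary little, such as Scg3 (SD 0.07 on the log2 scale), therefore come out close to one another whatever the shape of their pattern. Of the 45 pairs within the set, the closest were Scg3 with Chgb (0.077), Scg2 with Pcsk2 (0.082), Scg2 with Chga (0.090) and Chga with Pcsk2 (0.091). Nearest to Scg5 within the set was Vgf (0.227), followed by Cpe (0.257). Over 9952 genes with a mean of at least 10 CPM, Vgf ranked only 325 from Scg5. The 5 closest were Pard6a, a cell polarity gene (0.090), Rnf138rt1 (0.096), the splicing factor gene Sf3b5 (0.124), the synaptic adhesion gene Igsf21 (0.125) and the ATP synthase subunit gene Usmg5 (0.128). Pard6a, for example, was at 26.7, 33.2 and 25.4 CPM in Dot1l(+/+), 34.6, 27.9 and 28.8 CPM in Dot1l(fl/+), and 44.1 and 36.6 CPM in the Dot1l(fl/fl)-labelled libraries. Rnf138rt1 is a retrotransposed copy, and its reads could be shared with its parent gene. All of these values share the same 8 libraries and their depth.

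**Figure D4:**
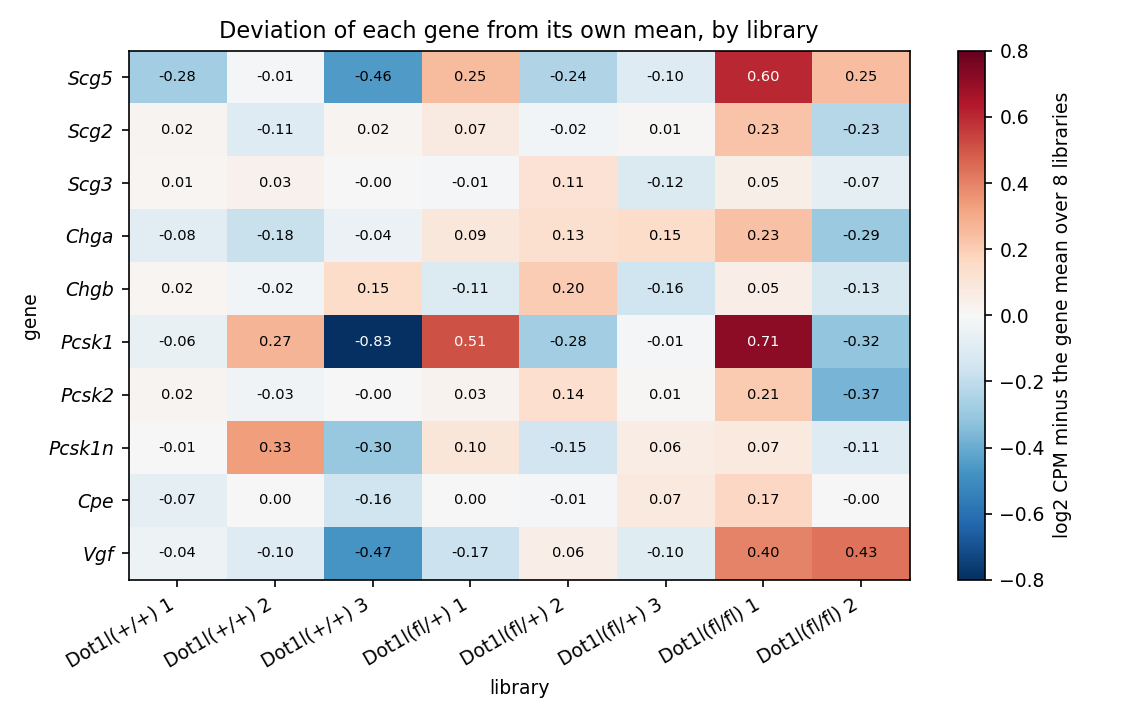
log2 CPM of each gene (rows) in every library (columns) minus the mean of that gene over the 8 libraries. Scg5 is highest in Dot1l(fl/fl) 1 (0.60) and lowest in Dot1l(+/+) 3 (-0.46), Vgf is high in both Dot1l(fl/fl)-labelled libraries, and Dot1l(fl/fl) 2 is below its gene means for Scg2, Chga, Pcsk2 and Pcsk1.

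The rest of the processing pathway was read from 3 lists. The first held 16 other processing enzymes, of which 15 were tested, and none passed the adjusted test in any comparison. Its median log2 fold change was -0.11 for the Dot1l(fl/fl)-labelled libraries against Dot1l(+/+), -0.05 for Dot1l(fl/+) against Dot1l(+/+) and 0.04 for the Dot1l(fl/fl)-labelled libraries against Dot1l(fl/+). At an unadjusted p under 0.05, 0 of 15 were higher and 0 lower in the first and the third of these, and 0 higher and 2 lower in Dot1l(fl/+) against Dot1l(+/+) (13.3% of the list, beside 5.02% of all tested genes). The 2 were Cpd, a carboxypeptidase of the trans-Golgi network, and Furin, the convertase of the constitutive pathway. Cpd was at 62.0, 54.2 and 65.2 CPM in Dot1l(+/+), 39.5, 54.5 and 46.8 CPM in Dot1l(fl/+), and 51.2 and 45.7 CPM in the Dot1l(fl/fl)-labelled libraries, so that Dot1l(fl/+) 2 overlapped the Dot1l(+/+) values. The Furin values were 23.5, 26.7 and 26.4 CPM, then 21.3, 17.9 and 21.3 CPM, then 24.5 and 21.5 CPM. Every Dot1l(fl/+) value of Furin lay below every Dot1l(+/+) value, beside 11.5% of all tested genes without overlap in either direction. The log2 fold changes for Dot1l(fl/+) against Dot1l(+/+) were -0.36 ± 0.14 for Cpd and -0.34 ± 0.17 for Furin, each with an adjusted p of 0.94 (edgeR).

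The second list held 36 genes of dense-core vesicle formation, sorting and release. Of its 35 tested genes, none passed the adjusted test, and the medians were -0.00, 0.06 and -0.03 in the same order. For the Dot1l(fl/fl)-labelled libraries against Dot1l(+/+), 2 were higher and 2 lower at an unadjusted p under 0.05 (11.4% of the list, beside 9.27% of all tested genes). The higher pair were Cadps2, a priming factor for vesicle release (0.33 ± 0.13, adjusted p = 0.376, edgeR), and Rab3b, a vesicle GTPase (0.35 ± 0.14, adjusted p = 0.428, edgeR). The lower pair were Slc18a2, the vesicular monoamine transporter (-0.32 ± 0.13, adjusted p = 0.415, edgeR), and Syt7, a calcium sensor (-0.28 ± 0.12, adjusted p = 0.462, edgeR). Slc18a2 was also on the list of DA markers above, so it is counted in both lists. Rab3b was at 47.8, 45.3 and 41.9 CPM in Dot1l(+/+), 58.6, 50.0 and 59.9 CPM in Dot1l(fl/+), and 59.6 and 55.1 CPM in the Dot1l(fl/fl)-labelled libraries. Its Dot1l(+/+) values overlapped with neither other genotype. Of all tested genes, 23.7% likewise did not overlap between the Dot1l(fl/fl)-labelled libraries and Dot1l(+/+), and 11.5% between Dot1l(fl/+) and Dot1l(+/+). For Dot1l(fl/+) against Dot1l(+/+), 2 were higher and 0 lower (5.71% of the list, beside 5.02% of all tested genes), namely Rab3b (0.32 ± 0.13) and the calcium sensor Syt9 (0.43 ± 0.15), each with an adjusted p of 0.94 (edgeR). The Dot1l(fl/fl)-labelled libraries against Dot1l(fl/+) gave 0 of 35 at that level, beside 4.02% of all tested genes.

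The third list held 39 neuropeptide precursors, the cargo that the granins and convertases handle. Most were scarce: 29 were tested, 4 had no count in any library, which with 3 counts as the floor allows up to 0.0687 to 0.2203 CPM, and 6 reached a mean of 10 CPM over the 8 libraries. These 6 were Cck (mean 130 CPM), Adcyap1 (33.5), Tac1 (22.7), Sst (15.4), Penk (15) and Pdyn (10.8). Cck, which encodes cholecystokinin and is a known co-transmitter of DA neurons, was at 121.9, 161.0 and 111.4 CPM in Dot1l(+/+), 126.0, 134.2 and 117.8 CPM in Dot1l(fl/+), and 142.7 and 121.5 CPM in the Dot1l(fl/fl)-labelled libraries, with all later values inside the Dot1l(+/+) range. Adcyap1, which encodes the peptide PACAP, ranged from 29.8 to 40.7 CPM, and its log2 fold changes in the 3 comparisons were -0.04 ± 0.17, 0.16 ± 0.15 and -0.20 ± 0.17. For Tac1, the substance P precursor gene, they were -0.02 ± 0.28, 0.30 ± 0.25 and -0.32 ± 0.29, and for the dynorphin precursor gene Pdyn 0.33 ± 0.27, 0.35 ± 0.24 and -0.02 ± 0.28.

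No neuropeptide precursor passed the adjusted test in any comparison, and the list medians were 0.11, 0.14 and -0.02. At an unadjusted p under 0.05, 1 was higher and 1 lower in the Dot1l(fl/fl)-labelled libraries against Dot1l(+/+), 2 higher and 0 lower in Dot1l(fl/+) against Dot1l(+/+), and 0 higher and 2 lower in the Dot1l(fl/fl)-labelled libraries against Dot1l(fl/+). Each was 6.9% of the list, beside 9.27%, 5.02% and 4.02% of all tested genes. The somatostatin gene Sst had 0.52 ± 0.23 (adjusted p = 0.477, edgeR) and Vip, which encodes vasoactive intestinal peptide, -1.24 ± 0.43 (adjusted p = 0.331, edgeR) in the first of these comparisons. Without Dot1l(fl/fl) 1 the Sst value was 0.22. Vip was at 5.3, 5.6 and 7.5 CPM in Dot1l(+/+), 2.5, 5.8 and 6.2 CPM in Dot1l(fl/+), and 2.7 and 2.5 CPM in the Dot1l(fl/fl)-labelled libraries, so Dot1l(fl/+) 1 was as low as the latter. Nts, the neurotensin gene, was at 1.4, 4.7 and 1.9 CPM in Dot1l(+/+), 4.2, 9.9 and 9.2 CPM in Dot1l(fl/+), and 3.2 and 2.6 CPM in the Dot1l(fl/fl)-labelled libraries. It was higher in Dot1l(fl/+) than in Dot1l(+/+) by 1.53 ± 0.43 (adjusted p = 0.94, edgeR), and the Dot1l(fl/fl)-labelled libraries differed from Dot1l(fl/+) by -1.42 ± 0.50 (adjusted p = 0.998, edgeR). The enkephalin precursor gene Penk had 0.87 ± 0.29 for Dot1l(fl/+) against Dot1l(+/+) (adjusted p = 0.94, edgeR), but its Dot1l(+/+) values of 5.7, 17.2 and 8.8 CPM overlapped those of Dot1l(fl/+), at 13.0, 21.9 and 23.3 CPM, and it was 0.58 without Dot1l(+/+) 1 and 1.41 without Dot1l(+/+) 2.

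**Figure D5:**
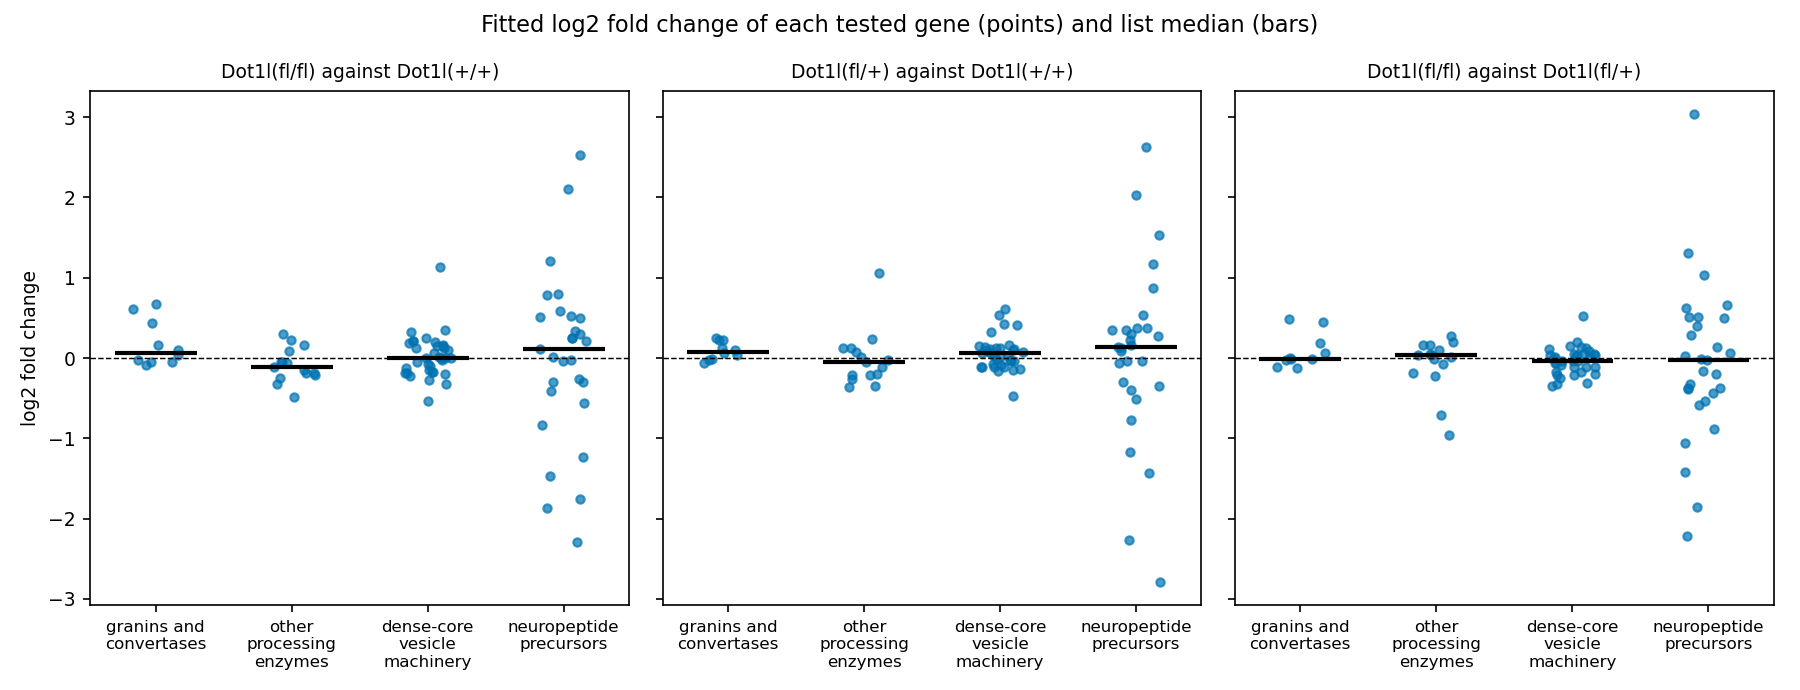
Fitted log2 fold change (vertical axis) of each tested gene of the 10-gene set, the 15 other processing enzymes, the 35 dense-core vesicle genes and the 29 neuropeptide precursors in the 3 comparisons, with bars at the list medians. All medians lie between -0.11 and 0.14, and the neuropeptide precursors, most of them at low counts, scatter most widely.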

How the data were processed

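The deposited files held, for each library, raw counts of reads by Ensembl gene, which the authors made with bcl2fastq 2.17, Trimmomatic 0.30 and genome GRCm38.p4. The kit kept strand, whereas the aligner, the counter and its strand setting were not given in the sources used here. The authors' comparison tables hold fold changes and p-values from DESeq2 1.10.1, of which none was used, and only gene symbols were read from them. Libraries were grouped by the genotype in their labels. CPM were computed with TMM factors. All 8 libraries entered 1 fit in edgeR 4.0.16 (filterByExpr, glmQLFit, glmQLFTest; R 4.3.3), with Benjamini-Hochberg adjustment over 17988 genes and a threshold of 0.05. The SE is the log2 fold change divided by the root of F. Fold changes with low counts depend on the edgeR prior count. Replicate pairs within a genotype differed by 17.69 to 42.74 times the counting variance, so no library was a repeat of another. Counting error for a gene is set by depth, and p-values take in that error together with the spread between pools. DESeq2 1.42.0 (3691 genes with an adjusted p in the first comparison), other scalings, no filter, a replicate block, a length and GC offset and leaving out each library were alternatives. Exon lengths came from GENCODE (99.1% of genes matched) and promoters from RefSeq. The script was tested on simulated data. Named genes were all 10 of the set, up to 6 genes of each list and comparison with the smallest unadjusted p under 0.05, every neuropeptide precursor with a mean of at least 10 CPM, and the 5 genes most like Scg5. The set and the lists were chosen with earlier results of these data known. One labelled library was not analysed here.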

Additional observations from a re-analysis of the deposited data

How the results depend on the processing

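Of the 270 log2 fold changes of the 10 genes recomputed with all libraries kept, 258 held their direction and their side of the threshold. Of the rest, 3 newly passed it and 9 changed sign. All 238 recomputed fold changes of the other genes named for an unadjusted p under 0.05 kept their sign and were not called. None of those genes had passed the adjusted threshold in the main fit, so this does not show that the unadjusted level held. Furin in Dot1l(fl/+) against Dot1l(+/+), for example, had an unadjusted p of 0.145 with a length and GC offset (edgeR). For the Dot1l(fl/fl)-labelled libraries against Dot1l(+/+), which chose the set, the count of the 10 genes called was 0, but 2 with no filter on low counts (Scg5 and Vgf), 1 with DESeq2 (Scg5), and 0 to 1 when 1 library was left out (Scg5, without Dot1l(fl/fl) 2 and without Dot1l(+/+) 2). Over all genes that comparison called 0, against 234 with DESeq2, 106 with no filter, 75 without Dot1l(+/+) 2 and 50 without Dot1l(fl/fl) 2. With no filter, Dot1l(fl/+) against Dot1l(+/+) called 11 and the Dot1l(fl/fl)-labelled libraries against Dot1l(fl/+) called 14, and DESeq2 called 1 in the latter. The cause was not tested.

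By the study's methods the pools drew matched genotypes from each litter, but neither labels nor methods tie a replicate number to a set of litters. Same-number correlations of -0.031 to 0.045 gave no sign of pairing by number, so the numbers were not used as pairs. A replicate block called 0 of the 10 genes in all 3 comparisons and moved the calls over all genes from 0 to 6, 0 and 4. Scg5 in the Dot1l(fl/fl)-labelled libraries against Dot1l(+/+) was 0.59 with the block, 0.53 with a length and GC offset and 0.41 with both. The changes of sign were as follows. With the offset, Scg2 was -0.07 in the Dot1l(fl/fl)-labelled libraries and -0.02 in Dot1l(fl/+), both against Dot1l(+/+), and with block and offset -0.11 and -0.02. For the Dot1l(fl/fl)-labelled libraries against Dot1l(fl/+), library totals alone gave 0.01 for Scg2 and 0.0013 for Scg3, the block gave -0.04 for Pcsk1, and block with offset gave -0.05 for Pcsk1 and -0.03 for Cpe. The offset moved the median of the other processing enzymes to -0.02 for the Dot1l(fl/fl)-labelled libraries against Dot1l(+/+).

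Leaving out 1 library kept 211 of 240 fold changes of the 10 genes and changed the sign of 27. Where a sign changed, the Dot1l(fl/fl)-labelled libraries against Dot1l(+/+) ran from -0.21 to 0.25 for Scg2, -0.09 to 0.03 for Scg3, -0.20 to 0.33 for Chga, -0.19 to 0.87 for Pcsk1, -0.37 to 0.21 for Pcsk2 and -0.19 to 0.14 for Pcsk1n. For Dot1l(fl/+) against Dot1l(+/+) the ranges were -0.08 to 0.04 for Scg3, -0.18 to 0.0038 for Chgb, -0.01 to 0.52 for Pcsk1 and -0.17 to 0.15 for Pcsk1n. For the Dot1l(fl/fl)-labelled libraries against Dot1l(fl/+) they were -0.26 to 0.21 for Scg2, -0.08 to 0.05 for Scg3, -0.42 to 0.11 for Chga, -0.12 to 0.10 for Chgb, -0.44 to 0.61 for Pcsk1, -0.44 to 0.15 for Pcsk2, -0.12 to 0.07 for Pcsk1n and -0.03 to 0.15 for Cpe. In the same 3 comparisons, list medians ran from -0.13 to 0.0048, -0.15 to -0.01 and -0.05 to 0.12 for the other processing enzymes, from -0.03 to 0.0041, 0.02 to 0.07 and -0.07 to 0.02 for the vesicle genes, and from 0.03 to 0.40, 0.03 to 0.15 and -0.21 to 0.10 for the neuropeptide precursors. A lone library of a genotype was assumed to vary like the others.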
